A study of Mus musculus with 12 samples.

Results

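Thoracic aortas taken 1 week after the end of a minoxidil course were compared with aortas of untreated mice, across all genes. The comparison used 8 of the study's 12 RNA sequencing libraries, chosen by their treatment labels, namely 4 from off-drug mice and 4 from controls. Every mouse was of the C57BL/6J strain and carried 1 functional elastin allele (Elastin +/-), controls included, so no library shows a wild-type aorta. Off-drug mice were started on minoxidil in drinking water at 2.5 months of age, kept on it for 2 weeks, and then given drug-free water for 1 week. Controls had drug-free water throughout, and the remaining 4 mice were killed at the end of the same 2 weeks on drug. All carried a labelled age of 3 months, although the schedule adds about 1 week to the age of those off drug. The tissue was the full thickness of the descending thoracic segment, with whatever blood and surrounding tissue remained. Neither the hour of collection nor the sex of the mice is given in the labels.

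The media of the aorta is built from layers of smooth muscle cells between elastic lamellae. Elastin is laid down on a scaffold of fibrillin microfibrils and cross-linked by lysyl oxidases, and collagens bear load at higher pressure. In elastin haploinsufficiency the artery is stiff and blood pressure is raised. Minoxidil relaxes arterial smooth muscle by opening ATP-sensitive potassium channels, which are made of pore subunits (Kcnj8, Kcnj11) and sulfonylurea receptors (Abcc8, Abcc9). Smooth muscle cells also run a circadian clock. In it the activators BMAL1 (gene Arntl) and CLOCK drive the genes of their own repressors, the Per and Cry families, through E-box sequences.

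The 8 libraries held 54607008 to 101574049 counts, in which reads assigned to several genes were counted for each. Of these, 7.54% to 9.5% fell on mt-Rnr2, a ribosomal RNA of mitochondria. Spearman correlations were 0.984 to 0.988 among controls, 0.985 to 0.989 among off-drug libraries and 0.979 to 0.986 between the groups. Levels are given as CPM, counts scaled to library size after TMM normalisation. A gene was called when edgeR's quasi-likelihood test gave a Benjamini-Hochberg adjusted p below 0.05, over 24660 tested genes of 50600 annotated. The submitters give 4 mice per group. Single libraries are written as control 1 to 4 and off-drug 1 to 4, and where a count is followed by values without a library, that library was left out of the fit. The smooth muscle marker Myh11 lay between 3651 and 5276 CPM in all 8 libraries, the main defining marker of the aortic media.

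Off drug, 1545 genes were higher than in controls (6.27% of those tested) and 1422 were lower (5.77%). The median log2 fold change of all genes was -0.008, and the median size of a called change was 0.425 on the log2 scale. At least 2-fold changes numbered 131 higher and 216 lower, and at least 4-fold changes 28 higher and 37 lower. The groups did not overlap for 2600 of the 2967 called genes, against 16.9% of all tested genes (9.20% with off drug above and 7.73% with off drug below). Of the calls 52.1% were higher. With library size alone in place of TMM the split was 68.9% higher (1870 higher, 844 lower), and the median of all genes moved from -0.008 to 0.05. The number higher was 1003 and the number lower 986 without control replicate 3, 1029 and 993 without off-drug replicate 1, and 1060 and 982 without off-drug replicate 3, where fewer samples were used. In each of 17 other settings, 0 of the called genes that were tested there changed sign.

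**Figure D1:**
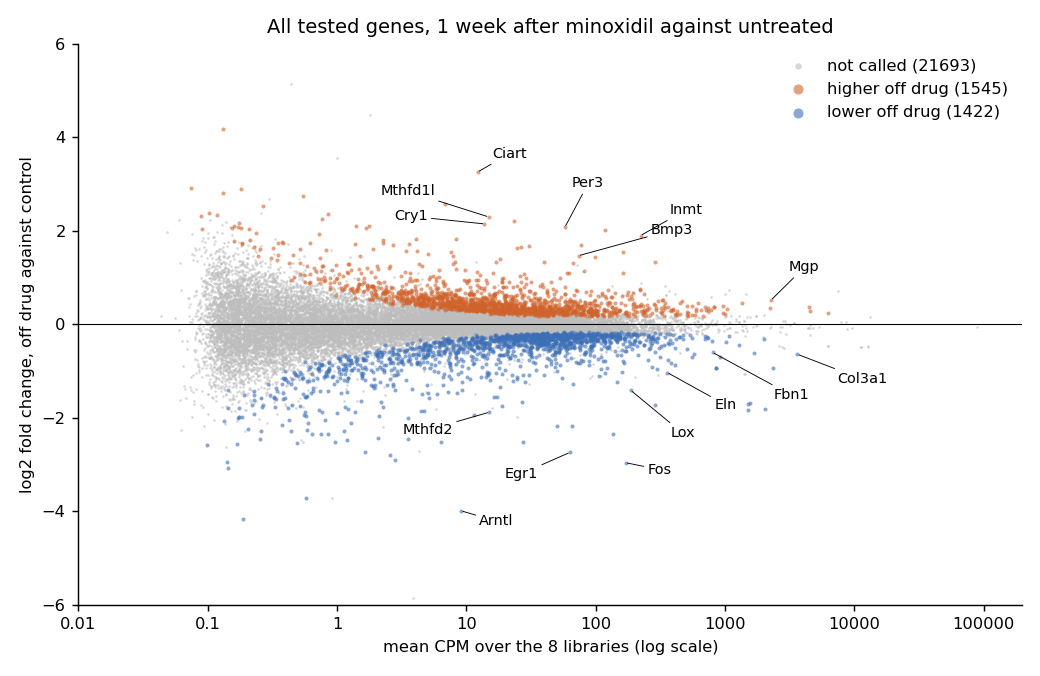
Each point is one of the tested genes, with mean CPM over the 8 libraries on a log scale (x) and log2 fold change off drug against control (y). Orange points are the 1545 genes called higher, blue points the 1422 called lower, and the labelled genes are described in the text; 1 gene lies outside the plotted range of 6 log2 units in either direction.

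Protein-coding genes made up most calls, 1369 higher and 1168 lower of 16162. Processed pseudogenes were called lower more often than higher, 62 against 14 of 2385. Reads that map to several genes were counted for each, so these counts can include reads of the parent genes. Small nucleolar RNA genes, many of which lie inside other transcripts, had 11 lower and 0 higher of 285. Long intergenic noncoding RNAs divided 33 to 37 of 957. Among genes with over 100 CPM, 11.2% were higher and 15% lower, against 0.892% and 1.49% among those under 1 CPM.

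The genes with the smallest adjusted p were from several processes. Mthfd1l, a mitochondrial folate enzyme that releases formate, stood at 4.72, 4.76, 5.55 and 5.05 CPM in controls and 23.8, 24.3, 24.4 and 26.2 CPM off drug. The groups lay far apart, with a log2 fold change of 2.30 ± 0.13 (SE) and an adjusted p of 1.29e-08. Mthfd2, which acts one step earlier in the same mitochondrial folate route, went the opposite way, at 19.1, 20.5, 26.1 and 28.7 CPM in controls and 6.86, 5.77, 7.22 and 5.82 CPM off drug (-1.88 ± 0.14, adjusted p = 5.69e-07). Every off-drug library was again outside the control range. Pdxk, the kinase that activates vitamin B6, rose by 1.07 ± 0.07, but 39.0% of its exon bases are shared with an overlapping gene model whose reads cannot be told apart. Inmt, an indole N-methyltransferase, measured 85.9, 94.9, 107 and 87.9 CPM in controls and 332, 354, 386 and 330.1 CPM off drug. The lowest off-drug value was more than 3-fold the highest control value. Other large rises at lower levels were Rasd2 (1.82), the sialidase Neu2 (1.73), Shisa2 (1.81), Nat8f3 (1.69) and the transcriptional co-regulator Cited2 (1.66). Large falls outside the lists below were Slc25a34, a mitochondrial carrier (-2.51), Wdr95 (-1.94) and carbonic anhydrase 2 (Car2, -2.43), an enzyme abundant in red cells.

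**Figure D2:**
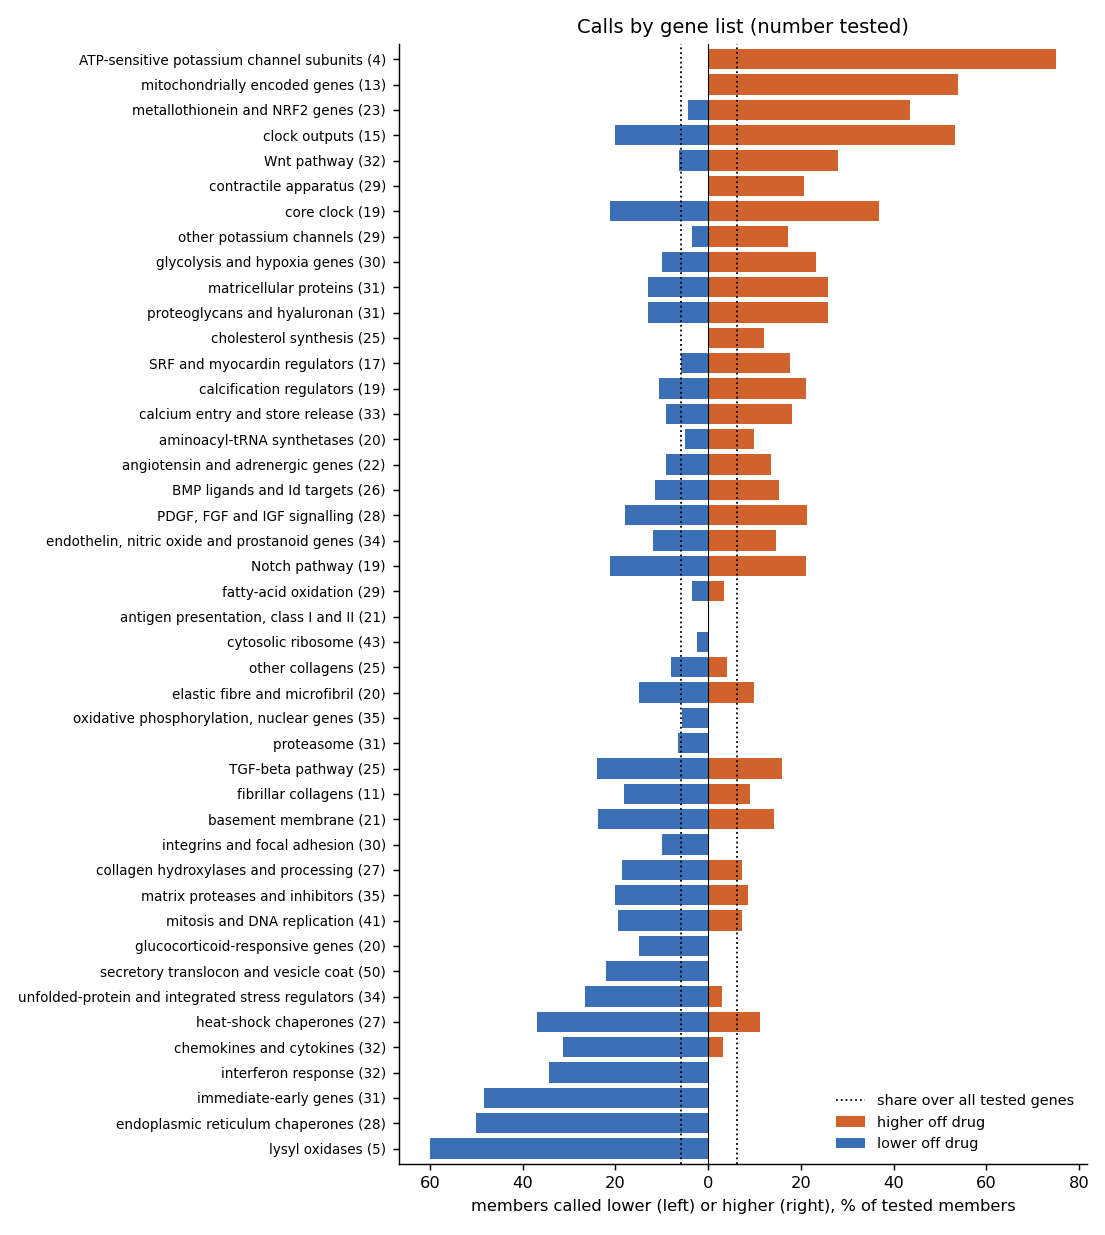
Share of tested members called higher (orange, to the right) or lower (blue, to the left) off drug for each gene list other than cell type markers, in percent, with the number tested in brackets. The dotted lines mark the shares over all tested genes, 6.27% higher and 5.77% lower; endoplasmic reticulum chaperones and immediate-early genes have calls on the lower side alone.

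Elastin, fibrillin-1 and the cross-linking enzyme Lox, the main components of elastic fibre assembly, were all lower off drug. Elastin itself (Eln, chr5:134702593-134747323, minus strand) had 622, 506, 369.8 and 425 CPM in controls and 241, 268, 219.8 and 209 CPM off drug. All off-drug libraries were below all controls, and the log2 fold change was -1.03 ± 0.21 (adjusted p = 0.0122). Lox, a copper enzyme that joins elastin and collagen molecules covalently (chr18:52516069-52529867, minus strand), had 266, 286, 261 and 273 CPM in controls and 92.3, 113, 94.8 and 108 CPM off drug. The groups lay far apart (-1.41 ± 0.08), and with Mthfd1l it shared the smallest adjusted p of the comparison (1.29e-08). Fibrillin-1 (Fbn1, chr2:125300594-125507993, minus strand), the backbone of microfibrils, had 1014, 975, 932 and 942 CPM in controls and 636, 706, 617 and 587 CPM off drug (-0.60 ± 0.07, adjusted p = 8.27e-06). Off-drug libraries therefore held about 0.659 of the control level of Fbn1 and 0.376 of that of Lox. Of 20 elastic fibre and microfibril genes 3 were lower and 2 higher (1 without control 2, control 3, control 4 or any one off-drug library), with a median of 0.037. The third lower gene was the microfibril glycoprotein Mfap5 (-0.43 ± 0.08), and Ltbp4, a latent TGF-beta binding protein needed for elastic fibre assembly, was higher (0.36 ± 0.09). Of the 5 lysyl oxidases 3 were lower and 0 higher, the others being Loxl2 (-0.42 ± 0.10) and Loxl3 (-0.27 ± 0.06).

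Collagen chains divided by type. Col3a1, the chain of type III collagen, was measured at 4944, 4202, 4647 and 3896 CPM in controls and 2866, 3270, 2828 and 2407 CPM off drug. No off-drug library reached the lowest control (-0.64 ± 0.10, adjusted p = 0.000814). Col5a3, a minor type V chain, fell from 10.6 ± 0.835 to 3.88 ± 0.622 CPM (mean ± SD, n = 4), the steepest change among the fibrillar chains at -1.44 ± 0.18. The type I chains overlapped between the groups, Col1a1 at -0.16 ± 0.11 (adjusted p = 0.414) and Col1a2 at -0.20 ± 0.09 (adjusted p = 0.164). Of 11 fibrillar collagens 2 were lower and 1 higher (Col27a1, 0.50 ± 0.10), and 10 had a negative log2 fold change. Of 25 other collagens 2 were lower, among them the type VI chain gene Col6a6 (-0.56 ± 0.09), and 1 was higher (Col19a1, 0.51 ± 0.08). Among these 25, the number lower was 1 without control 3, off-drug 2, off-drug 3 or off-drug 4.

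Basement membrane genes gave 5 lower and 3 higher of 21. Single libraries changed the number higher, which was 0 without control 3 and 1 without control 4 or off-drug 1. The lower ones included the laminin chains Lama3 (-0.80 ± 0.14), Lama2 (-0.31 ± 0.06) and Lamb1 (-0.36 ± 0.09) and the type IV collagen chain Col4a1, which went from 886 ± 75.05 to 696 ± 36.4 CPM. Perlecan (Hspg2), a large heparan sulfate proteoglycan, was at 0.15 ± 0.09 and was not called (adjusted p = 0.276). Enzymes and chaperones of collagen processing had 5 lower and 2 higher of 27. The number lower was 3 without control 3, off-drug 3 or off-drug 4 and 3 with library size only, and the number higher was 0 without control 2, control 3 or off-drug 1 and 1 without off-drug 2 or off-drug 3. Serpinh1 (HSP47), the chaperone that holds procollagen triple helices, had 1128, 1017, 1225 and 1152 CPM in controls and 748, 715, 667 and 648 CPM off drug (-0.70 ± 0.08, adjusted p = 1.09e-05). The groups were separated by a wide gap. The prolyl 4-hydroxylase subunits P4ha1 (-0.66 ± 0.14) and P4ha2 (-0.66 ± 0.10), which stabilise the collagen helix, were lower too.

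Matrix glycoproteins and proteoglycans held most of the higher calls among matrix genes, although the median of each list was negative. Fibronectin (Fn1), a ligand of several integrins, had 1919, 1960, 1813 and 2051 CPM in controls and 2486, 2712, 2486 and 2251 CPM off drug (0.36 ± 0.07, adjusted p = 0.00211), with every off-drug library above the controls. Of 31 matricellular proteins 8 were higher and 4 lower, with a median of -0.085 and 18 negative estimates. Sparcl1 rose from 166 ± 18.4 to 277 ± 28.4 CPM, Smoc1 by 0.70 ± 0.08, the collagen-organising thrombospondin-2 (Thbs2) from 106 ± 12.4 to 159 ± 9.99 CPM, and Ecm1 by 0.58 ± 0.10. Tenascin C (Tnc, -0.38 ± 0.09) and connective tissue growth factor (Ctgf, -0.60 ± 0.12), matricellular proteins made by stretched or injured vessels, were lower. Of 31 proteoglycan and hyaluronan genes 8 were higher and 4 lower, with a median of -0.047 and 17 negative estimates. The number higher was 5 without control 3, control 4 or off-drug 1 and the number lower 7 by DESeq2. Aggrecan (Acan), the large proteoglycan of cartilage that also occurs in stiff arteries, had 33.1, 33.3, 28.6 and 30.4 CPM in controls and 52.96, 57.1, 63.2 and 60.3 CPM off drug (0.90 ± 0.12, adjusted p = 0.000231). Its lowest off-drug value was 1.6 times the highest control. The small leucine-rich proteoglycan Podn rose by 0.81 ± 0.11, whereas the hyaluronan synthase Has1 (-1.30 ± 0.20) and the membrane proteoglycan Sdc4 (-0.65 ± 0.07) fell, as did the leucine-rich Ogn (-0.45 ± 0.09) and Omd (-0.46 ± 0.11). Matrix proteases and inhibitors had 3 higher and 7 lower of 35 (lower: 4 with library size only). The aggrecan-cleaving proteases Adamts4 (-1.88 ± 0.27) and Adamts5 (-0.56 ± 0.07) were lower, and the protease inhibitors Timp3 (0.33 ± 0.06), Reck (0.33 ± 0.07) and Serpine2 (0.28 ± 0.06) were higher. Over all 206 matrix genes tested, 28 were higher and 35 lower, with a median of -0.053 beside -0.008 over all genes.

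**Figure D3:**
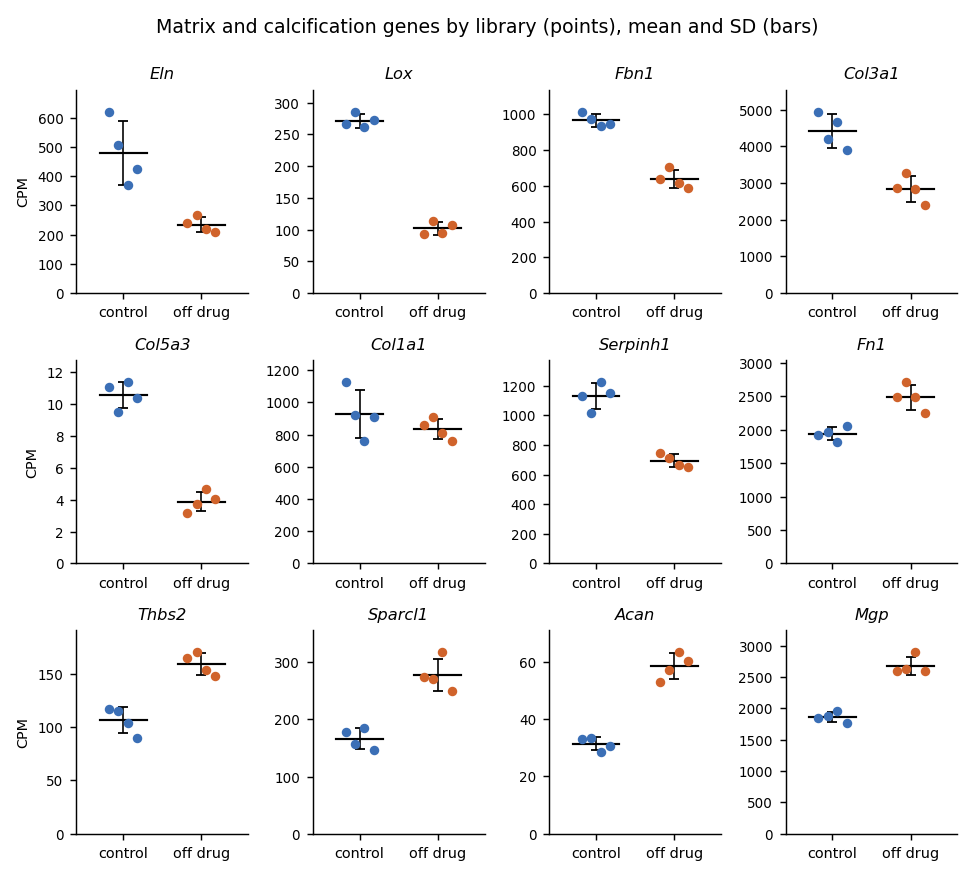
CPM (y, from 0) of 12 matrix and calcification genes in the 4 control (blue) and 4 off-drug (orange) libraries; bars are the mean and SD. The groups overlap for Col1a1 and are separate for the other 11 genes, of which 6 are lower off drug (Eln, Lox, Fbn1, Col3a1, Col5a3, Serpinh1) and 5 higher.

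Calcification regulators were called in both directions, and the 4 called higher are each known to restrain calcification. Matrix Gla protein (Mgp), an inhibitor of vascular calcification, had 1842, 1886, 1959 and 1764 CPM in controls and 2598, 2625, 2897 and 2596 CPM off drug (0.52 ± 0.06, adjusted p = 1.67e-05). The groups were well apart. Osteoprotegerin (Tnfrsf11b), the decoy receptor for RANKL, rose from 19.4 ± 1.14 to 32.8 ± 0.618 CPM, the pyrophosphate exporter Ank by 0.51 ± 0.08 and the pyrophosphate-making ectoenzyme Enpp1 by 0.25 ± 0.06. Of 19 calcification regulators 4 were higher and 2 lower, with a median of 0.248, and the 2 lower ones are not named here. The number lower was 1 without control 1, control 3, control 4 or off-drug 3 and 0 without off-drug 2 or off-drug 4. Sox9, a member that is also on the cartilage list, was not called by edgeR (adjusted p = 0.0702). It was called higher by DESeq2 (0.68, adjusted p = 0.037). By edgeR it was called higher with a filter of 1 CPM in 4 libraries (0.048) and without control 3 (0.0474).

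Among growth-factor genes the smallest adjusted p was that of Bmp3. Bmp3, a BMP family member that antagonises other BMPs, had 37.2, 35.7, 40.5 and 43.3 CPM in controls and 101, 118, 112 and 103 CPM off drug (1.47 ± 0.09, adjusted p = 3.61e-08). Every off-drug library held more than 2-fold the level of any control. Its close relative Gdf10 (BMP3B) rose by 0.73 ± 0.09. The BMP-responsive Id genes differed in direction, Id4 higher (0.91 ± 0.15) and Id1 lower (-0.49 ± 0.10), and the BMP receptor Bmpr1b was lower (-0.48 ± 0.10). In all, 4 of 26 BMP genes were higher and 3 lower. Of 32 Wnt pathway genes 9 were higher and 2 lower (lower: 1 without off-drug 2, off-drug 3 or off-drug 4), with a median of 0.122. They included the receptors Fzd4 (from 86.8 ± 3.96 to 137 ± 3.41 CPM) and Fzd8 (0.58 ± 0.11), the ligand Wnt5a (0.67 ± 0.12) and the secreted modulator Sfrp2 (0.39 ± 0.07), all higher, and the ligand Wnt16, which was lower (-0.42 ± 0.09).

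TGF-beta pathway genes had 4 higher and 6 lower of 25, and the number higher was 2 without control 3, off-drug 1 or off-drug 4 and the number lower 3 with library size only. The signalling receptor Tgfbr2 (0.40 ± 0.06) and the co-receptor Tgfbr3 (0.40 ± 0.07) rose, while the Smad repressor Skil (-0.56 ± 0.09) and the secreted Fstl1 (-0.31 ± 0.07) fell. Notch genes gave 4 higher and 4 lower of 19, among them the receptor Notch2 (0.38 ± 0.06), the target Hey2 (0.42 ± 0.08) and the co-activator Maml2 (0.34 ± 0.09), all higher. Fewer Notch genes were lower in some fits, at 2 without control 2, off-drug 1, off-drug 2 or off-drug 3, and 2 with library size only or by limma voom. PDGF, FGF and IGF signalling had 6 higher and 5 lower of 28, and the number higher was 3 without control 2, control 3 or off-drug 3. The ligand Pdgfc rose (0.73 ± 0.11) and its relative Pdgfd fell (-0.44 ± 0.07), as did Fgfr3 (-0.84 ± 0.12), the IGF-binding protein Igfbp3 (-1.36 ± 0.18) and Igf1 itself (-0.40 ± 0.09). Integrin and focal adhesion genes had 0 higher (1 without control 1) and 3 lower (1 with library size only) of 30, with Itgb3 at -0.41 ± 0.10.

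In smooth muscle itself, 6 of 29 contractile genes were higher and 0 lower (1 without control 1, control 2 or off-drug 1). Smooth muscle myosin (Myh11) had 4421, 4373, 3651 and 3888 CPM in controls and 5276, 4780, 4856 and 4942 CPM off drug (0.28 ± 0.07, adjusted p = 0.0103). Off-drug libraries were all above controls. Smoothelin (Smtn) rose from 155 ± 22.6 to 226 ± 7.12 CPM, the intermediate-filament protein Synm by 0.49 ± 0.07 and the actin cross-linker Actn1 by 0.34 ± 0.06. Smooth muscle actin (Acta2) overlapped between the groups at 0.05 ± 0.08 (adjusted p = 0.735) and was at -0.01 without off-drug replicate 1. Of 17 SRF and myocardin regulators 3 were higher (Mkl2, 0.43 ± 0.07; Tbx18, 0.45 ± 0.10; Prrx1, 0.34 ± 0.08) and 1 lower. The number lower was 0 without control 2, control 3, control 4 or any one off-drug library, and the number higher was 5 without control 1.

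The channel that minoxidil acts on was measured in all of its subunits. Kcnj8, the vascular pore subunit, had 63.3, 55.3, 52.3 and 49.05 CPM in controls and 67.5, 62.6, 79.4 and 65.7 CPM off drug. The control with the most and the off-drug library with the least overlapped slightly, and the log2 fold change was 0.32 ± 0.08 (adjusted p = 0.0149). Abcc9, its sulfonylurea receptor, had 498, 498, 472 and 424 CPM in controls and 528, 577, 566 and 563 CPM off drug (0.24 ± 0.06, adjusted p = 0.0171), with no overlap. Kcnj11 was at a low level, from 1.54 ± 0.114 to 2.37 ± 0.521 CPM (0.62 ± 0.18, adjusted p = 0.0319), and Abcc8 was under 1 CPM in every library and not called (adjusted p = 0.599). Each of the 3 calls ended when some single libraries were left out. For Kcnj8 these were control replicate 4 (0.0511) and off-drug replicate 3 (0.0637). For Abcc9 they were control replicate 4 (0.0642) and off-drug replicates 2 (0.0505) and 3 (0.0509). For Kcnj11 they were control replicates 2 (0.0687), 3 (0.058) and 4 (0.0854) and off-drug replicates 2 (0.0723), 3 (0.111) and 4 (0.0819). So 0 of the 4 subunits passed without control replicate 4 or off-drug replicate 3, and 1 without off-drug replicate 2, with all 4 estimates above 0 in the reported fit.

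Other ion channels and receptors moved in both directions. Of 29 other potassium channels 5 were higher and 1 lower (2 without control 1). The higher ones included the voltage-gated Kcnc4 (from 10.2 ± 0.934 to 21.9 ± 3.62 CPM), Kcnh2 (0.71 ± 0.10) and Kcnd3 (0.51 ± 0.10) and the calcium-activated channel Kcnma1 (0.36 ± 0.06), and the low Kcnj12 was higher too, from 0.4598 ± 0.128 to 1.09 ± 0.117 CPM. The 1 lower channel was Kcna2 (-0.76 ± 0.17). Calcium entry and store genes had 6 higher and 3 lower of 33. The plasma membrane calcium pump Atp2b4 (0.46 ± 0.06) and the channel subunit Cacnb3 (0.52 ± 0.09) rose, and the T-type channel Cacna1g (-0.79 ± 0.09) and the sodium-calcium exchanger Slc8a1 (-0.35 ± 0.06) fell. Among 22 angiotensin and adrenergic genes 3 were higher (1 without control 2, off-drug 3 or off-drug 4, and 5 with library size only and 6 with a filter of 1 CPM in 4 libraries or by DESeq2) and 2 lower. The receptor kinase Grk5, which desensitises such receptors, had 27.8, 31.03, 31.2 and 38.4 CPM in controls and 13.6, 14.3, 13.3 and 14.1 CPM off drug (-1.21 ± 0.09, adjusted p = 8.31e-08). The control and off-drug ranges were clearly separate. The angiotensin receptor Agtr1a was low in all libraries and fell (-1.21 ± 0.22), while the G-protein regulator Rgs4 rose (0.60 ± 0.11). Endothelin, nitric oxide and prostanoid genes had 5 higher and 4 lower of 34, and the number lower was 2 without off-drug 2 and 2 with the 2 groups alone. The inducible cyclooxygenase Ptgs2 rose from 19.4 ± 1.84 to 38.7 ± 8.405 CPM (1.00 ± 0.21), and the natriuretic peptide receptors Npr3 (0.67 ± 0.10) and Npr2 (0.34 ± 0.07) and the phosphodiesterase Pde1a (0.32 ± 0.08) rose as well. Over the 168 genes of vessel-wall function 31 were higher and 11 lower, with a median of 0.039.

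The largest fall and the largest rise among the named genes were both in clock genes. Promoter sequence of 250 bases before each gene start was available from RefSeq (GRCm38.p6). The E-box letters CACGTG, read on both strands, were present before 6 of the 13 higher clock genes that had a promoter (46.2%: Tspan4, Cry1, Tef, Ciart, Lonrf3 and Bhlhe41), before 0 of 6 lower ones, and before 6.86% of all 27025 genes. They stood before 7 of 27 clock genes whether called or not (25.9%), and also before 4 of 13 lower immediate-early genes (30.8%) and 2 of 7 lower heat-shock genes (28.6%). Ciart held 3 of them, and Per3 held 2 copies of the D-box (TTATGTAA or TTACGTAA), a sequence bound by the DBP, TEF and HLF factors and present before 1.10% of all genes. These matches are descriptions of letters, not of binding. The stretches are shown 5′ to 3′ on the strand of the gene for 4 of these 6 genes and for Per3, whose values follow, with the motif in capitals.
Tspan4 (E-box, chr7:141476307-141476356, plus strand): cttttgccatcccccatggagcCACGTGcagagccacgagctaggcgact
Cry1 (E-box, chr10:85185087-85185136, minus strand): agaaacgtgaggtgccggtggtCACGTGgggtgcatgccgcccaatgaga
Tef (E-box, chr15:81802524-81802573, plus strand): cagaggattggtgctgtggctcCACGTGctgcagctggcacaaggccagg
Ciart (E-box, chr3:95882245-95882366, minus strand): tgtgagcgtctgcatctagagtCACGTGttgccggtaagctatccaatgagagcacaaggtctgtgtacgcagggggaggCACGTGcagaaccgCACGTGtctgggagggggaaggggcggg
Per3 (D-box, chr4:151044794-151044892, minus strand): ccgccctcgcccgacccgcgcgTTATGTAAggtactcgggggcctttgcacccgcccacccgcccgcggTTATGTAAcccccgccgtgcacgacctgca

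The activators of the clock were lower off drug, and the Per and Cry repressors that were called were higher. Arntl (chr7:113207465-113314126, plus strand) had 19.1, 13.9, 14.9 and 20.8 CPM in controls and 1.02, 1.43, 1.11 and 0.7905 CPM off drug. The log2 fold change of -3.99 ± 0.30 (adjusted p = 1.15e-05) was the largest fall among genes named by size. Clock, its partner, had 138, 155, 145 and 140.1 CPM in controls and 61.03, 71.4, 63.98 and 72.5 CPM off drug (-1.10 ± 0.08, adjusted p = 8.31e-08), and Npas2, which can replace CLOCK, fell too (-1.86 ± 0.25). Of the repressors, Cry1 had 4.68, 4.73, 5.24 and 5.62 CPM in controls and 21.4, 23.8, 21.5 and 23.4 CPM off drug (2.15 ± 0.14, adjusted p = 7.97e-08). Per2 rose from 36.2 ± 2.92 to 118 ± 10.6 CPM and Per3 from 22.1 ± 3.44 to 93.4 ± 2.51 CPM, and for each the 4 off-drug libraries lay closely together. Ciart, another repressor, had 1.45, 3.01, 2.76 and 2.06 CPM in controls and 17.4, 19.7, 27.03 and 24.4 CPM off drug, the largest rise among genes named by size (3.26 ± 0.34). Bhlhe41, which represses E-box genes, rose by 1.68 ± 0.23. Nr1d1 (REV-ERB alpha), which represses Arntl, was lower, from 59.05 ± 7.29 to 39.4 ± 3.23 CPM (-0.59 ± 0.09, adjusted p = 0.00046). In total 7 of 19 core clock genes were higher and 4 lower. The nuclear receptor Rora was not called (-0.13 ± 0.07, adjusted p = 0.277).

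Most clock outputs that changed were higher. The 3 transcription factors that bind D-boxes were all higher, Dbp from 46.8 ± 10.2 to 188 ± 18.6 CPM, Tef from 162 ± 23.97 to 408 ± 11.2 CPM and Hlf from 8.24 ± 1.14 to 38.2 ± 3.21 CPM. No control library reached the lowest off-drug library for any of them. Tspan4, a tetraspanin, had 49.2, 52.9, 53.8 and 55.9 CPM in controls and 149, 138, 149 and 142 CPM off drug (1.45 ± 0.09, adjusted p = 3.61e-08). The cell-cycle kinase Wee1 rose by 1.63 ± 0.19 and the ubiquitin ligase Lonrf3 by 0.69 ± 0.12, whereas Dtx4 (-1.13 ± 0.15) and Pnp (-0.38 ± 0.08) fell. Of 15 clock outputs 8 were higher and 3 lower, with a median of 0.42. Over clock, immediate-early and glucocorticoid lists together, 15 of 83 genes were higher and 25 lower. Samples of a group were taken at hours that the labels do not give, so an effect of the drug course and one of the hour of collection cannot be told apart for these genes.

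**Figure D4:**
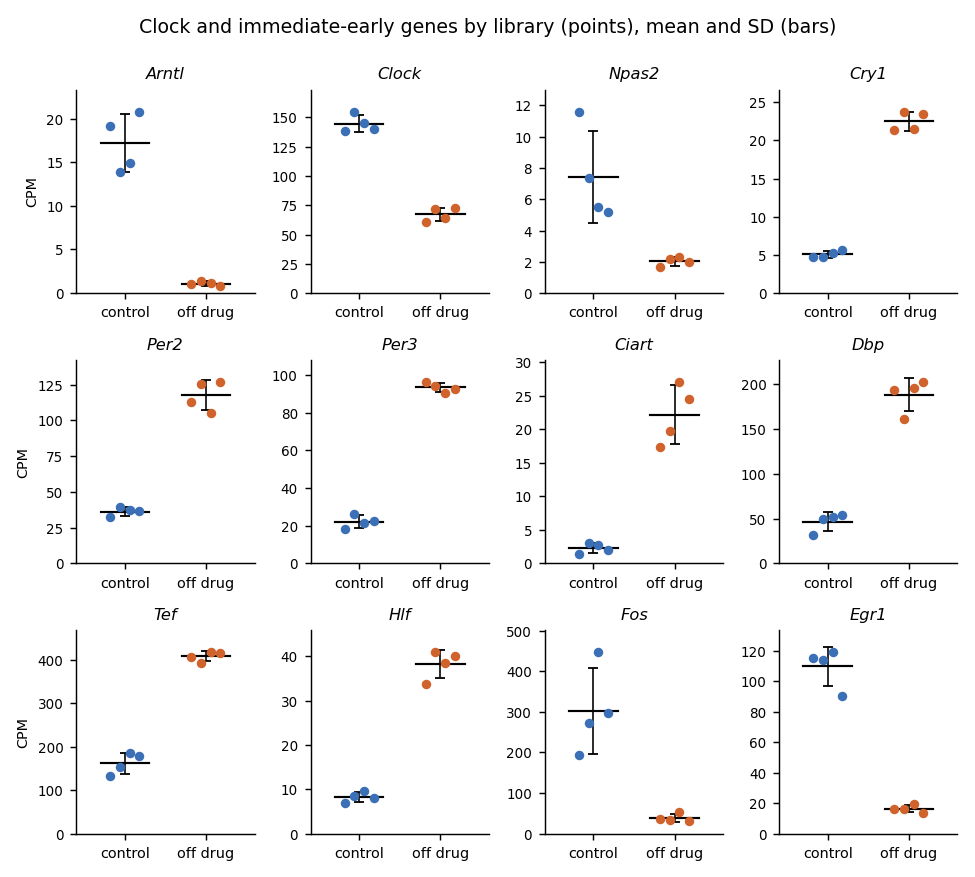
CPM (y, from 0) of 10 clock genes and 2 immediate-early genes in the 4 control (blue) and 4 off-drug (orange) libraries; bars are the mean and SD. The activators Arntl, Clock and Npas2 and the immediate-early genes Fos and Egr1 are lower off drug, and the other 7 genes higher, with no overlap between the groups in any panel.

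Immediate-early genes, which are transcribed within minutes of a stimulus, were lower as a group. Of 31 tested, 15 were lower and 0 higher, with a median of -0.516 beside -0.008 over all genes. The number higher was 2 without control 1 and 1 without control 3, and 1 with a filter of 1 CPM in 4 libraries, with the 2 groups alone, with a replicate block or without robust dispersion and 2 by DESeq2 or by limma voom. Fos, a component of the AP-1 factor, had 194, 272, 446 and 298 CPM in controls and 35.7, 33.8, 53.8 and 31.8 CPM off drug (-2.96 ± 0.41, adjusted p = 0.00178). Control replicate 3 was the highest, and the highest off-drug library was still below the lowest control. Egr1, a zinc-finger factor, went from 109.8 ± 13.01 to 16.5 ± 2.46 CPM and its relative Egr2 from 10.8 ± 1.7 to 1.895 ± 0.314 CPM. Junb (-2.34 ± 0.25), the orphan receptor Nr4a1 (-2.18 ± 0.37) and Ier2 (-2.18 ± 0.28) fell by more than 4-fold. Smaller differences were seen in the survival factor Mcl1 (-0.46 ± 0.06) and in Maff (-0.66 ± 0.10). Of 20 glucocorticoid-responsive genes 3 were lower and 0 higher, with a median of -0.443, among them the cell-cycle inhibitor Cdkn1a (from 21.1 ± 2.78 to 9.32 ± 1.95 CPM) and Cebpb (-0.66 ± 0.11). The number lower was 8 by DESeq2, 7 by limma voom or without robust dispersion and 5 with the 2 groups alone.

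Promoters of 13 lower immediate-early genes were searched. The serum response CArG box, searched on both strands, lay before Egr2 and Zfp36 (1.62% of all genes hold it). The cAMP element TGACGTCA lay before Maff, Dusp1 and Btg2, which is 23.1% of the 13 against 1.77% of all genes. Over all 26 tested immediate-early genes with a promoter, called or not, 3 held the cAMP element (11.5%) and 3 the CArG box (11.5%). Zfp36 (-1.09 ± 0.15), Dusp1 (-0.69 ± 0.11) and Btg2 (-1.72 ± 0.25) code for an mRNA-decay factor, a MAP kinase phosphatase and an antiproliferative protein. A stretch of each kind is shown, with the motif in capitals.
Egr2 (CArG box, chr10:67537472-67537525, plus strand): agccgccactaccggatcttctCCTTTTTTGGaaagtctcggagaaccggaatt
Btg2 (cAMP element, chr1:134079292-134079343, minus strand): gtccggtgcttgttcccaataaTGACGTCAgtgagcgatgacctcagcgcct

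Chaperones of the endoplasmic reticulum were lower wherever they were called. Chaperones of this compartment are induced together by the unfolded protein response, in part through the ER stress element, CCAAT and CCACG with 9 bases of any kind between them. That sequence occurred before 7 of the 12 lower chaperone genes that had a promoter (58.3%), and before 35 of 27025 genes in all (0.130%). The 7 were Calr, Pdia6, Hsp90b1, Hspa5, Creld2, Dnajc3 and Canx. Over all tested chaperones with a promoter, called or not, 7 of 23 held it (30.4%). The sequences of 5 are shown 5′ to 3′ on the strand of the gene with the element in capitals, read on either strand.
Hspa5 (ER stress element, chr2:34772003-34772065, plus strand): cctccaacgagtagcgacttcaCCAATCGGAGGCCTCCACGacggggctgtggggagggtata
Calr (ER stress element, chr8:84847053-84847115, minus strand): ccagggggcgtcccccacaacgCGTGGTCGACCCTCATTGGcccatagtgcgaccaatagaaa
Pdia6 (ER stress element, chr12:17266469-17266531, plus strand): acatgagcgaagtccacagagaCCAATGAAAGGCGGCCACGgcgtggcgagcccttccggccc
Creld2 (ER stress element, chr15:88819498-88819560, plus strand): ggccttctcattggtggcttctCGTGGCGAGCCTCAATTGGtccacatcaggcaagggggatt
Dnajc3 (ER stress element, chr14:118937805-118937867, plus strand): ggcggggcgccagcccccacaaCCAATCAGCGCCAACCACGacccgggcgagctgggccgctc

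Hspa5 (BiP), the HSP70 of the endoplasmic reticulum (chr2:34771970-34777547, plus strand), had 472, 472, 621 and 559 CPM in controls and 306, 317, 271 and 276 CPM off drug (-0.86 ± 0.11, adjusted p = 9.4e-05). All off-drug libraries were below all controls. Calreticulin (Calr), a lectin chaperone of glycoproteins, had 695, 672, 718 and 664 CPM in controls and 441, 445, 417 and 398 CPM off drug (-0.69 ± 0.06, adjusted p = 1.49e-06). Its membrane-bound relative calnexin (Canx) fell less, by 0.28 (SE 0.06). The disulfide isomerase Pdia6 went from 145 ± 7.695 to 84.7 ± 5.43 CPM and the HSP90 of this compartment, Hsp90b1, from 345 ± 21.8 to 229.8 ± 9.31 CPM. Creld2 (-0.64 ± 0.10) and Dnajc3 (-0.45 ± 0.07), which assist folding, were lower too, and Sdf2l1, which works with BiP, had the most negative estimate of the list (-1.41 ± 0.20). Of 28 tested members 14 were lower and 0 higher, and 24 had a negative estimate (median -0.264). The most abundant member not called was P4hb, which also serves prolyl hydroxylase, at -0.12 ± 0.06.

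**Figure D5:**
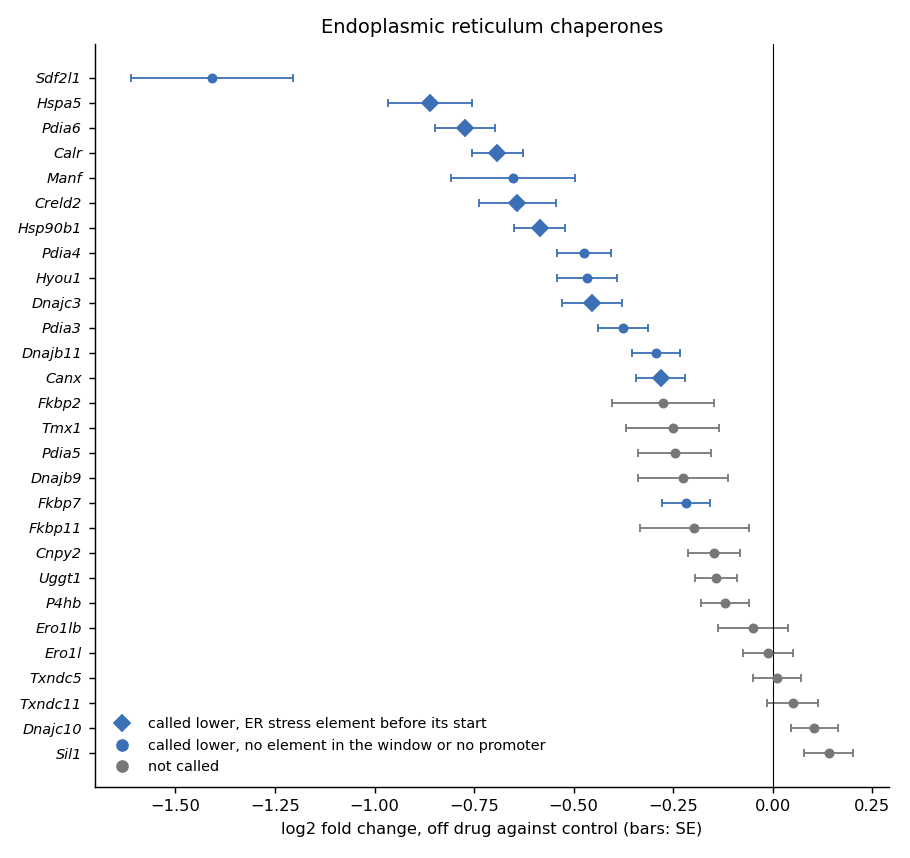
Log2 fold change off drug against control (x, bars are SE) of the 28 tested endoplasmic reticulum chaperones. Blue marks the 14 called lower and grey those not called; diamonds mark the 7 genes with an ER stress element before their start, all of them called lower.

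Other genes of the secretory route were also called, mostly lower. Secretory translocon and vesicle coat genes had 11 lower and 0 higher of 50 (higher: 2 without control 1), with a median of -0.114; the number lower was 18 by DESeq2. Among them were the retrieval receptor Kdelr3 (from 70.9 ± 3.96 to 52.4 ± 3.25 CPM), the translocon subunit Sec61g (-0.45 ± 0.08), the signal peptidase subunit Spcs3 (-0.41 ± 0.08) and the cargo receptor Lman1 (-0.29 ± 0.06). Regulators of the unfolded-protein and integrated stress responses had 9 lower and 1 higher of 34. The transcription factors Atf4 (-0.47 ± 0.07) and Xbp1 (-0.51 ± 0.09) and the phosphatase subunit Ppp1r15a (-0.47 ± 0.11) fell. Here the number lower depended on single libraries, at 3 without control 3, 4 without control 4 or off-drug 1 and 5 without off-drug 2 or off-drug 4, and 3 with library size only. The 1 higher gene was lost in some of these fits (0 without control 2, off-drug 1 or off-drug 3).

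Heat-shock chaperones of the cytosol and mitochondria had 10 lower and 3 higher of 27, with a median of -0.438. Their summed level lay between 8240 and 15800 CPM in controls and between 5570 and 7270 CPM off drug. Hspa8, the constitutive HSP70, had 2558, 2288, 3834 and 3635 CPM in controls and 1650, 1719, 1426 and 1624 CPM off drug (-0.94 ± 0.16, adjusted p = 0.00286), with control replicates 3 and 4 the highest. The inducible Hspa1b, which shares reads with its near-identical copy, had 1703, 1259, 3496 and 1282 CPM in controls and 1009, 799, 669 and 1221 CPM off drug. The groups did not overlap, control replicate 3 stood far above the rest, and edgeR did not call the difference (-1.07 ± 0.38, adjusted p = 0.108). The adjusted p was 0.0391 by DESeq2, 0.0396 by limma voom and 0.029 by edgeR without robust dispersion, and the estimate was -0.62 without control 3. Hspb7, of heart and muscle, and Hspa2, first known from testis, rose (Hspb7 0.63 ± 0.08, Hspa2 0.39 ± 0.07). Of the heat-shock list, the number lower was 6 without control 3, control 4 or off-drug 1 and 5 without off-drug 3, but 17 by DESeq2 or without robust dispersion and 16 by limma voom. The mitochondrial chaperonin genes Hspd1 (-0.47 ± 0.09) and Hspe1 (-0.45 ± 0.12) are neighbours that share one promoter with 2 overlapping heat-shock elements (GAA, TTC and GAA with 2 bases of any kind between them, before 0.514% of all genes). They were the 2 of 7 lower heat-shock genes with a promoter that held it, and the stretch is shown on the strand of Hspd1. Over all tested heat-shock genes with a promoter, called or not, 2 of 21 held it (9.52%). The call of Hspe1 ended without control replicate 4 (0.0621) or off-drug replicates 1 (0.0628), 2 (0.0566) or 3 (0.0708).
Hspd1 (heat-shock element, chr1:55088037-55088098, minus strand): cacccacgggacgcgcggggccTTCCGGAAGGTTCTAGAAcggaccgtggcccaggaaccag

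Energy and redox genes changed selectively. Of the 13 protein-coding genes of the mitochondrial genome 7 were higher and 0 lower (median 0.382), among them mt-Nd1, at 589, 511, 448 and 529.9 CPM in controls and 636, 738, 682 and 809.7 CPM off drug (0.46 ± 0.09, adjusted p = 0.00333). Nuclear copies of mitochondrial genes can share these reads. The groups were separate for mt-Nd1 and for mt-Nd4l (0.55 ± 0.11). The count of 7 was 4 without control 2 or off-drug 2 and 3 without control 3, and 2 without a filter on low counts. All mitochondrial genes together took 10.01% to 12.4% of off-drug and 11.2% to 11.7% of control counts. Nuclear genes of oxidative phosphorylation, by contrast, had 2 lower and 0 higher of 35 (lower: 1 without control 4, off-drug 1 or off-drug 2; higher: 1 without control 1), with Ndufa4 at -0.26 ± 0.06. Metallothionein and NRF2 genes had 10 higher and 1 lower of 23. They included the regulator Nfe2l2 itself (0.40 ± 0.07), the glutathione transferases Gsta3 (from 2.71 ± 0.758 to 6.41 ± 0.688 CPM) and Gsta4 (0.83 ± 0.15) and the peroxidase Prdx6 (0.34 ± 0.06), and the 1 lower gene was the peroxidase Prdx1 (-0.26 ± 0.06). Glycolysis and hypoxia genes had 7 higher and 3 lower of 30, and the number higher was 4 without control 2, control 3, control 4, off-drug 1, off-drug 3 or off-drug 4. The vasodilator peptide adrenomedullin (Adm) went from 6.86 ± 1.86 to 13.03 ± 2.26 CPM (0.92 ± 0.16), the hypoxia factor Epas1 rose by 0.34 ± 0.08, and the phosphofructokinases moved apart, Pfkm up (0.45 ± 0.07) and Pfkp down (-0.30 ± 0.06). The hypoxia-induced carbonic anhydrase Car9 was lower (-0.86 ± 0.21).

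Ribosomal, proteasome and fatty-acid oxidation genes were called about as often as all genes or less. Cytosolic ribosomal proteins had 1 lower and 0 higher of 43, the proteasome 2 lower and 0 higher of 31, and fatty-acid oxidation 1 lower and 1 higher of 29. The number of ribosomal proteins lower was 2 without control 1, 8 without control 2 and 0 without control 3, control 4 or any one off-drug library. The number of proteasome genes lower was 0 without control 3, control 4, off-drug 2, off-drug 3 or off-drug 4 and 1 without off-drug 1. In each of these 2 lists 1 gene was higher without control replicate 1. Of fatty-acid oxidation genes the number higher was 2 without control 1, 0 without control 2, control 3 or off-drug 3 and 3 without off-drug 2, and the number lower was 0 without control 1, control 2, control 4, off-drug 1 or off-drug 2 and 2 without control 3 or off-drug 3. Aminoacyl-tRNA synthetases had 2 higher (Mars, 0.29 ± 0.07; Qars, 0.26 ± 0.07) and 1 lower of 20 (lower: 2 without control 1). Cholesterol synthesis had 3 higher and 0 lower of 25, among them the regulator Srebf1 (0.47 ± 0.10), and the number higher was 5 without control 1 and 1 without control 3, control 4 or off-drug 1.

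Of 41 mitosis and DNA replication genes 8 were lower, such as the spindle checkpoint kinases Bub1 (-1.37 ± 0.33) and Bub1b (-0.65 ± 0.13), and 3 were higher, such as the replicative helicase subunit Mcm4 (0.45 ± 0.09). The number lower in that list was 2 without control 2 or control 3, 5 without control 4 or off-drug 2, 3 without off-drug 1 and 4 without off-drug 4, and 5 with the 2 groups alone. The number higher was 5 without control 1 and 1 without off-drug 3.

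Most immune genes that changed were lower. Of 85 tested over the 3 lists, 21 were lower and 1 higher, with a median of -0.299. In bulk tissue, fewer cells of a type and less RNA per cell cannot be told apart. Of 32 interferon response genes 11 were lower and 0 higher, and 30 had a negative estimate. Their summed level overlapped between the groups, at 452 to 688 CPM in controls and 411 to 474 CPM off drug, with control 1 the highest. The antiviral gene Rsad2 had 7.17, 4.58, 2.79 and 9.55 CPM in controls and 1.597, 1.2, 0.8198 and 0.857 CPM off drug (-2.45 ± 0.37, adjusted p = 0.00133). Control replicate 4 was the highest and replicate 3 the lowest of the controls, and all lay above the off-drug libraries. Oas3 (-2.35 ± 0.38), Oas1a (-1.38 ± 0.23) and Ifi27 (-0.40 ± 0.09) were lower too. The number lower was 7 without control 3 or off-drug 2 and 4 without off-drug 4, or 7 without a filter on low counts and 6 with the 2 groups alone, and the number higher was 2 without control 1 and 2 by limma voom.

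Chemokines and cytokines had 10 lower and 1 higher of 32, with a median of -0.649. The monocyte attractant Ccl7 had 1.68, 6.83, 4.84 and 6.38 CPM in controls and 0.508, 1.07, 0.384 and 0.648 CPM off drug (-2.90 ± 0.43, adjusted p = 0.00135). Control replicate 1 was well under the other controls for this gene, as it was for Ccl2 (-2.79 ± 0.60). Ccl9 went from 39.5 ± 12.3 to 16.9 ± 2.66 CPM, and the cytokine Osm, under 2 CPM throughout, fell by 2.53 on the log2 scale (SE 0.44). In this list the number lower was 6 without control 3 or any one off-drug library and 5 without control 4, or 6 with a filter of 1 CPM in 4 libraries, and the number higher was 2 without control 1 and 0 without control 4, off-drug 1, off-drug 3 or off-drug 4. Genes of antigen presentation had 0 calls of 21 by edgeR (1 without control 4), with H2-D1 at -0.10 ± 0.09 (adjusted p = 0.529); at an unadjusted p below 0.05 there were 2, and DESeq2 called 0.

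Markers of the cell types in and around the wall were examined to see how the tissue samples compared. Of 10 smooth muscle markers 4 were higher and 0 lower (higher: 2 without control 2, control 4 or off-drug 3; lower: 1 without control 1, control 2 or off-drug 1), and their sum lay between 17300 and 19600 CPM in controls and 18800 and 21400 CPM off drug. Of 20 endothelial markers 3 were lower, the receptor Tek (-0.38 ± 0.08), Icam2 (-0.48 ± 0.12) and Egfl7 (-0.37 ± 0.09), and 2 were higher (1 without control 2, control 4, off-drug 2 or off-drug 4 and 0 without control 3, off-drug 1 or off-drug 3). Of 15 adventitial fibroblast markers 4 were lower and 0 higher, among them Clec3b (-0.53 ± 0.10), Cd34 (-0.40 ± 0.07) and Ly6a (-0.38 ± 0.08). Of 18 macrophage markers 7 were lower and 0 higher, with a median of -0.264 and a sum of 1090 to 1360 CPM in controls and 938 to 1070 CPM off drug. Adgre1 (F4/80) had 38.6, 47.8, 43.3 and 39.9 CPM in controls and 29.96, 32.3, 31.7 and 28.8 CPM off drug (-0.47 ± 0.08, adjusted p = 0.000632). The groups were separate, as they were for the complement genes C1qa (-0.38 ± 0.07) and C1qb (-0.42 ± 0.07) and the phagocytic receptor Mertk (-0.36 ± 0.06). Lymphatic endothelium had 1 lower and 0 higher of 8 (0 without control 3, control 4, off-drug 1, off-drug 3 or off-drug 4).

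Red-cell markers had the most negative median of all lists. Of 9 erythroid markers 8 were lower and 0 higher (median -1.814), and their summed level was 4960 to 20600 CPM in controls and 2060 to 4840 CPM off drug. Control replicate 4 had the highest sum. The count of 8 was 4 without control 2, 2 without control 3, off-drug 2, off-drug 3 or off-drug 4 and 3 without control 4. It was also 3 without a filter on low counts and 2 with the 2 groups alone or with a replicate block. Neutrophil markers, also of blood, summed to 9.26 to 30.6 CPM in controls and 2.11 to 10.7 CPM off drug, with 0 calls of 8 (5 lower without off-drug replicate 2; 4 at an unadjusted p below 0.05, 4 by DESeq2). Whether blood left in the samples had a part in other results was not tested.

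Other marker sets gave few calls. T cell markers had 0 calls of 15 and sums of 6.17 to 20.8 CPM in controls and 11.6 to 37.2 CPM off drug. Estimates were positive for 14 of the 15 (median 0.781) and for 11 of 12 B and plasma cell markers (median 0.742). B and plasma cells had 0 of 12, mast cells 0 of 10, platelets 0 of 9, white adipocytes 0 of 11, Schwann cells and neurons 0 of 10, and mesothelium 0 of 7. These are counts by edgeR. In these 7 sets an unadjusted p below 0.05 was reached by 6 genes, and DESeq2 called 3. In the B and plasma cell set the number higher was 1 without off-drug 3. In the mesothelial set it was 1 without control 1 or off-drug 2, and the number lower was 1 without control 2, control 3 or control 4. Brown adipocyte markers had 1 lower and 0 higher of 9, the deiodinase Dio2, with 85.6, 86.6, 84.9 and 120.1 CPM in controls and 40.2, 40.8, 36.5 and 37.6 CPM off drug (-1.28 ± 0.10, adjusted p = 9.5e-07). The defining marker Ucp1 did not follow the groups, at 83.4, 27.6, 3.07 and 111 CPM in controls and 5.01, 4.21, 78.7 and 80.5 CPM off drug. It ranged widely in both groups and was not called (-0.41 ± 1.13, adjusted p = 0.868). Skeletal muscle had 2 higher and 0 lower of 13, among them Ckm (0.85 ± 0.15), and the number higher was 1 without control 1, control 3, off-drug 1 or off-drug 2. Cardiac muscle had 1 higher and 0 lower of 7 (Tnnt2, 0.94 ± 0.19), and cartilage cells 3 higher and 0 lower of 8 (lower: 1 without off-drug 1), among them Hapln1 (0.88 ± 0.16), which links aggrecan to hyaluronan. Skeletal muscle markers summed to no more than 26.1 CPM in any library.

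Levels of the main genes in the mice killed at the end of the drug course are set beside these for reference. That group shared the controls and the fit, and its own differences were not tested here. Eln was at 839 ± 227 CPM there, Lox at 288 ± 33.5, Fbn1 at 1272 ± 74.5, Col3a1 at 5235 ± 694 and Fn1 at 3514 ± 258 CPM (mean ± SD, n = 4). For Eln, Lox, Fbn1, Col3a1 and Fn1 the mean on drug was above that of both groups compared here. For Lox it exceeded the control mean by less than the SD on drug. Kcnj8 was at 44.8 ± 2.798 and Abcc9 at 488 ± 21.5 CPM. Among clock genes, Arntl was at 9.25 ± 3.22, Cry1 at 4.56 ± 1.22, Per3 at 41.4 ± 9.48 and Dbp at 109 ± 35.7 CPM, so that the mean on drug lay between the other 2 groups for Arntl, Per3 and Dbp and under both for Cry1. Hspa5 was at 422 ± 58.98, Calr at 622 ± 50.99, Egr1 at 70.6 ± 22.02 and Mthfd1l at 7.73 ± 1.85 CPM, each between the control and off-drug means.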

How the data were processed

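Total RNA of 12 aortas was sequenced, and the 4 off-drug and 4 control libraries were compared. The authors deposited raw counts per gene. Per the file headers, featureCounts v1.4.6-p3 counted read pairs against GENCODE M13 without strand, with multi-mapping and overlapping reads counted for every gene they touched and marked duplicates ignored, so paralogs, overlapping genes and antisense genes share reads. The authors' series table holds log2 values of size-factor-scaled counts, as deposited, and was used for gene names, types and positions alone. The submitters' processing notes name STAR with an index made by 2.5.3a and DESeq2. Here edgeR 4.0.16 (R 4.3.3) fitted its quasi-likelihood model with robust dispersion and TMM factors to all 12 libraries in 3 groups, after filterByExpr with a minimum count of 10 and a minimum total of 15, and tested off drug minus control. P-values were adjusted over all 24660 genes tested, by Benjamini-Hochberg, at 0.05. Totals of 54607008 to 101574049 counts set the counting error. The scripts were run on simulated counts before use.

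The text names 12 fixed genes; the 15 largest rises and the 15 largest falls, taken from called genes whose groups do not overlap and whose mean is 1 or more in log2 CPM; up to 4 called members of each list by adjusted p; the most abundant uncalled member of a list; and the 10 smallest adjusted p. Not all of these are printed: 2 genes are not reported here, and unnamed gene models and Crybg3, which has 2 models, were left out. Genes with promoter motifs were added, and Ogn, Omd, Serpine2, Tnc, Ctgf, Bmpr1b, Maml2, Igf1, Wnt16, Kcnj12, Kcna2, Nr1d1, Pnp, Car9, Prdx1 and Sdf2l1 were named after their values were seen. Members and lists were chosen with earlier results of these data known, so no adjusted p over a list alone is given. Alternatives were DESeq2 size factors or library size as the scaling, no filter or at least 1 CPM in 4 libraries, DESeq2 1.42.0 and limma voom (3.58.1) as the test, the 2 groups alone, a replicate block, dispersion without robust estimation, and leaving out each library. Sequences are from RefSeq on GRCm38.p6, matched by symbol for 27025 genes.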

Additional observations from a re-analysis of the deposited data

Results flagged for a closer look

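In 29 of 460 groups of 4 libraries examined (6.3%, where chance gives about 1 in 20), 1 library stood apart from the other 3 of its group by more than Dixon's 95% criterion. Among controls, replicate 4 stood apart for Dio2 (120.1 CPM against 84.9 to 86.6), Pdgfc (8.27 against 10.9 to 11.3), Nfe2l2 (42.8 against 53.5 to 55.3), Rtl1 (5.82 against 7.51 to 7.70) and the summed skeletal muscle markers (15.05 against 11.6 to 12.2). Control replicate 2 stood apart for Adamts5 (58.1 CPM), Peg3 (83.6) and Neat1 (261 against 186 to 192), control replicate 3 for Wnt16 (17.4), Enpp1 (44.5), Clec3b (27.9) and the summed adventitial fibroblast markers (7317 against 6239 to 6417), and control replicate 1 for Cited2 (17.8 against 10.7 to 11.8).

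Among off-drug libraries, replicate 1 stood apart for Wdr95 (5.04 CPM), Gdf10 (99.1), Sfrp2 (283), Adm (16.4 against 11.7 to 12.4) and the summed lymphatic markers (58.9 against 74.8 to 78.1). Replicate 2 stood apart for Nat8f3 (4.44 CPM), Smoc1 (91.8), Kcnma1 (87.3) and the summed B and plasma cell markers (35.4 against 21.3 to 23.7). Replicate 3 stood apart for P4ha2 (31.9 CPM), Mgp (2897 against 2596 to 2625) and Mars (33.5), and replicate 4 for Lama2 (253.7), Fzd4 (142.3), Nfe2l2 (74.2) and Cd34 (218.9). For each of the called genes here, the call was made with and without that library.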

How the results depend on the processing

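Of 202 called genes named in the text, 202 had the same sign and 198 kept the call in each of 17 other settings, and the exceptions were Kcnj8, Abcc9, Kcnj11 and Hspe1. The numbers higher and lower were 1488 and 1497 with DESeq2 size factors, 1870 and 844 with library size only, 1480 and 1482 without a filter, 1816 and 1455 at 1 CPM or more in 4 libraries, 1941 and 1949 by DESeq2, 1541 and 1430 by limma voom and 1525 and 1189 in the 2 groups alone. They ranged from 1003 to 1926 higher and from 982 to 1627 lower when single libraries were left out, with 1029 higher without off-drug replicate 1. The estimate reversed for Acta2 (0.11 to -0.01 over single libraries left out, the last without off-drug replicate 1) and Ucp1 (-0.94 to 0.15, the last without control replicate 4), which were called in neither case; the cause was not tested. Same-numbered libraries of the 2 groups did not deviate together (correlations 0.0254, 0.161, -0.3129 and -0.0409), so the numbers are not taken to pair mice, and a replicate block gave 1442 higher and 1349 lower. Of genes under 1 CPM, 0.892% were called higher and 1.49% lower. List counts of 2 or fewer also moved under some of these settings, such as ribosomal proteins with 6 lower without a filter against 1. Hour of collection and the 1 week between the groups cannot be told apart from the drug course.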

Other observations

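Some imprinted genes and a noncoding RNA outside the lists were called, and those given here were chosen after their values had been seen, with no count over all such genes. Rian, a long noncoding RNA expressed from the maternal allele, had 82.8, 97.1, 93.4 and 87.2 CPM in controls and 46.8, 61.1, 46.4 and 52.5 CPM off drug (-0.80 ± 0.09, adjusted p = 1.37e-05). All off-drug libraries were below all controls. Mirg (-1.22 ± 0.15, adjusted p = 5.48e-05) and the paternally expressed Rtl1 (-0.73 ± 0.16, adjusted p = 0.00592), which lie in the same imprinted cluster on chromosome 12, were lower too. Of other imprinted genes, Peg3 went from 75.95 ± 5.13 to 60.99 ± 3.84 CPM and Grb10, an adaptor that restrains insulin and growth-factor receptors, from 91.2 ± 3.23 to 72.5 ± 3.78 CPM. Zim1 fell by 1.54 (SE 0.29) on the log2 scale, whereas Cdkn1c, a growth-restricting inhibitor of cyclin-dependent kinases, rose by 0.61 ± 0.09 (adjusted p = 0.00024). The paraspeckle RNA Neat1, a nuclear transcript that rises under stress in many cells, had 187, 261, 192 and 186 CPM in controls and 106, 119, 113 and 138 CPM off drug (-0.79 ± 0.11, adjusted p = 0.000223). Counting ignored strand, so reads of overlapping transcripts in the imprinted cluster cannot be told apart.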
